A study of Mus musculus with 2 samples.

Results

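The Spata genes are mouse genes named for an association with spermatogenesis. Their members were taken by symbol: every symbol in either count matrix that begins with Spata and a number, leaving out Spata6, Spata18, Spata19 and Spata22. This gave 26 genes of the 30052 symbols measured. They lie on 10 chromosomes, and 25 of them are annotated as protein coding (Spata5l1 is a processed transcript). The rule reads symbols only, although it was set with earlier results of these data known.

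The data are droplet single-cell RNA sequencing of dissociated testes of adult mice, with 1 library of WT genotype and 1 library of Nsun7 knockout genotype. Nsun7 belongs to the NOL1/NOP2/SUN family of RNA methyltransferase-like proteins, and no drug or other treatment is named for either library. The labels do not say how many animals went into a library, which part of Nsun7 was removed or which strain was used. With 1 library per genotype no test across samples was possible, so every difference below describes these libraries, and its interval covers counting error only.

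The Spata symbol is a naming series and not a single protein family. Its genes were collected because their transcripts were found in testis or in male germ cells, and they include a ubiquitin pathway adaptor, an AAA ATPase, ciliary and axonemal proteins, a Golgi protein of the forming acrosome and an inner nuclear membrane protein. Male germ cells pass from spermatogonia through meiotic spermatocytes to haploid round spermatids, which then elongate, replace histones by transition proteins and protamines, and store transcripts for later translation.

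Among the members that are related by sequence are the Spata31 genes of chromosome 13, which arose by gene duplication. On GRCm38, Spata31d1a lies at chr13:59699806-59710330 on the minus strand, Spata31d1b at chr13:59712284-59719295 on the plus strand and Spata31d1d at chr13:59725925-59731752 on the minus strand. Spata31 lies at chr13:64917406-64923194 and Spata31d1c at chr13:65033058-65038004, both on the plus strand. The 250 bases before the RefSeq start of Spata31d1b (chr13:59712034-59712283), Spata31d1c (chr13:65032808-65033057), Spata31d1d (chr13:59731753-59732002) and Spata31 (chr13:64917156-64917405) are printed here on the gene's strand, because these related genes did not all rise in the same cluster.
Spata31d1b: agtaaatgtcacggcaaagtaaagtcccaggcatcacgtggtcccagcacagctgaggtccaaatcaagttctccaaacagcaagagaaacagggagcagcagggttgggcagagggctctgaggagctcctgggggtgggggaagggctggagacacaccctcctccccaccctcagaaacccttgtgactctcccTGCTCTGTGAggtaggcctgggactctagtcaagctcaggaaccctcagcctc
Spata31d1c: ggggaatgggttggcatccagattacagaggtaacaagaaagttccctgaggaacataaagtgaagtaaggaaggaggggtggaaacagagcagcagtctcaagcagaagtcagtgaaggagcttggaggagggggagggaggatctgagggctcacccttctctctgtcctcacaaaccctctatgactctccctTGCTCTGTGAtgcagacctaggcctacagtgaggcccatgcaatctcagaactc
Spata31d1d: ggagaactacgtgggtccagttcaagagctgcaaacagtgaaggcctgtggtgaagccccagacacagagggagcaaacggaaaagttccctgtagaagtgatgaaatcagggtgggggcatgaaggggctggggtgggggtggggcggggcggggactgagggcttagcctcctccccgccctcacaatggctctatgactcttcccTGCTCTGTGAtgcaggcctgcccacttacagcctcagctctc
Spata31: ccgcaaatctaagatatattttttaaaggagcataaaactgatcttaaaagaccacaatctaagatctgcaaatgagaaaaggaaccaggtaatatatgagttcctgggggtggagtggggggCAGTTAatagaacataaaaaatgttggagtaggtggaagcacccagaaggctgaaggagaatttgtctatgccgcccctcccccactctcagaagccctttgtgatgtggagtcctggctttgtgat

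In the first 3 lines the capitals mark TGCTCTGTGA, the longest run that all 4 Spata31d1 windows hold. It begins 53 bases before the start of Spata31d1b, 54 before that of Spata31d1c, 42 before that of Spata31d1d and 37 before that of Spata31d1a. The same letters, on either strand, stand in 87 of the 32851 windows of this length in the RefSeq table (0.265%). The windows of Spata31d1a and Spata31d1b hold 120 identical bases in a row. The longest runs that the Spata31 window shares with those of the Spata31d1 genes are 9 to 12 bases. In the Spata31 line the capitals mark a match to TAACNG, the core letters bound by MYB factors, on the reverse strand.

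Levels are given as CPM: the counts of a gene summed over the cells of a class, per 1000000 counts of that class. Cells were clustered without any Spata gene, and clusters were named from marker genes of which none is a Spata gene. The classes hold 1077 WT and 441 knockout spermatogonium-like cells, 1094 and 465 early spermatocyte-like cells, 3813 and 1349 late spermatocyte-like cells, 1397 and 566 round spermatid-like cells, and 5089 and 8720 elongating spermatid-like cells. Somatic classes (Leydig-like, macrophage-like, Sertoli-like and interstitial stroma-like) hold 163 to 752 cells per library. Median counts per cell lay between 10192 and 16654 in WT late spermatocytes, round spermatids and elongating spermatids. In the knockout library they were 3387 in late spermatocytes, 14562.5 in round and 14817 in elongating spermatids. Nsun7 itself stood at 218 (WT) and 41.6 CPM (knockout) in round spermatids, and it was lower in the knockout library in all 5 germ cell stages. Counts at the end of a transcript may lie outside the removed part, so this level does not by itself check the label.

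Along the germ cell stages, most Spata genes were highest in spermatids. Of the 26 members, 24 reached 10 CPM in at least 1 stage in each library, and 19 of these 24 were highest in round or elongating spermatids in both libraries. Over all genes at that level, 28.7% in WT and 28.5% in the knockout library were highest in those stages. Spata2 was highest in spermatogonia, Spata5 in early spermatocytes, and Spata1, Spata4 and Spata16 in late spermatocytes. Round spermatids were the highest stage of 10 members (Spata2l, Spata9, Spata17, Spata25, Spata31, Spata31d1c, Spata31d1d, Spata45, Spata46 and Spata48). Elongating spermatids were that of 9 members (Spata3, Spata7, Spata20, Spata21, Spata24, Spata31d1a, Spata31d1b, Spata32 and Spata33). All 24 members had the same highest stage in both libraries, against 90.3% of all genes. This count depended on the processing: it was 21 of 24 at Leiden resolution 2 and 22 of 24 with means of single-cell CPM. The share of all genes is not given for these settings. In the knockout library 2 round spermatid peaks were not separated from elongating spermatids by counting error. They were those of Spata25 (1.07-fold, interval 0.994 to 1.15) and Spata31d1c (1.15-fold, 0.997 to 1.31).

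**Figure D1:**
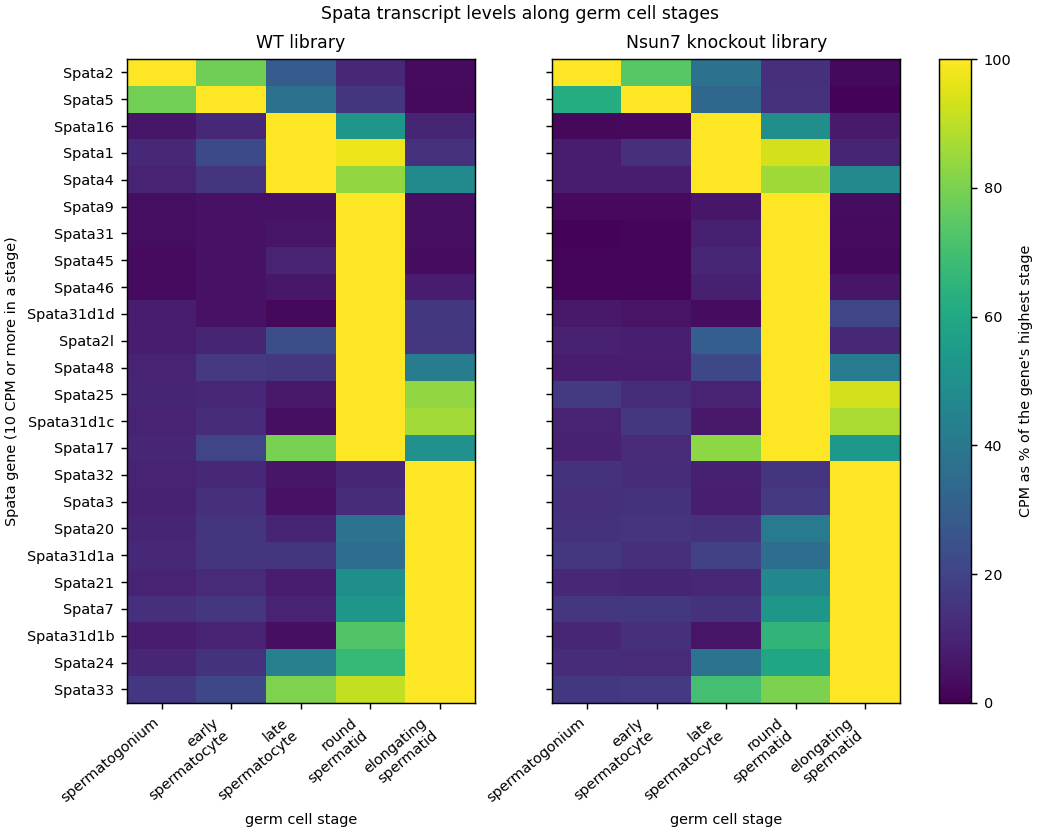
Level of each of the 24 Spata genes at 10 CPM or more, in the 5 germ cell stages of the WT and the knockout library, as a percentage of that gene's highest stage in the same library (colour scale). Most rows are brightest in the round or elongating spermatid column, and the brightest column of a row is the same in both libraries.

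Spata13 and Spata5l1 stayed under 10 CPM in every germ cell stage. Spata13, a RAC1 and CDC42 exchange factor regulated by APC, was highest in somatic classes, at 23.3 CPM in WT interstitial stroma-like cells and 25.2 CPM in knockout macrophage-like cells. Spata2 and Spata2l are related adaptor genes. Spata2, which bridges the deubiquitinase CYLD to the linear ubiquitin ligase complex, stood at 16.2 (WT) and 11.4 CPM (knockout) in spermatogonia. These values overlap those of early spermatocytes (12.6 and 8.43 CPM) within counting error. Its highest somatic level was 13.9 CPM in WT (Sertoli-like cells) and 13.3 CPM in the knockout library (macrophage-like cells). In neither library did the counting interval of Spata2 in a germ cell stage lie wholly above those of the somatic classes. For the other 23 members measured, the interval of a stage did so. The same was true of 68.9% of all genes in WT and 67.9% in the knockout library. Spata2l was highest in round spermatids, at 27.0 (WT) and 28.7 CPM (knockout), and it was at 6.47 and 8.55 CPM in late spermatocytes.

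Spata5 was the member of the mitotic and early meiotic cells. It encodes an AAA ATPase that acts in the maturation of large ribosomal subunits. In WT it stood at 242 CPM in spermatogonia, 308 CPM in early spermatocytes, 116 CPM in late spermatocytes, 46.1 CPM in round spermatids and 7.56 CPM in elongating spermatids. The knockout series ran 205, 331, 112, 46.8 and 3.22 CPM. Both libraries therefore show one order, a peak in early spermatocytes and a fall at each later stage. After thinning each cell to 1000 counts, 26.3% of WT early spermatocytes (95% exact interval 23.7 to 29.0%) and 27.5% of knockout ones held a Spata5 count. In Leydig-like cells, which should lack germ cell transcripts, these shares were 0.870% and 1.11%. Without thinning, 63.7% and 70.8% of early spermatocytes and 18.8% and 16.4% of Leydig-like cells held one.

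Spata4, Spata16 and Spata1 were the members of meiotic prophase and its exit. Spata4 (chr8:54600781-54610098, plus strand) stood at 1773 (WT) and 1741 CPM (knockout) in late spermatocytes and at 1484 and 1492 CPM in round spermatids. It remained at 841 and 818 CPM in elongating spermatids. The 250 bases before its start (chr8:54600531-54600780) are printed because Spata4 and Spata45 are the members whose windows hold both a MYB match and a match to GTTGCC, part of the site bound by RFX factors.
Spata4: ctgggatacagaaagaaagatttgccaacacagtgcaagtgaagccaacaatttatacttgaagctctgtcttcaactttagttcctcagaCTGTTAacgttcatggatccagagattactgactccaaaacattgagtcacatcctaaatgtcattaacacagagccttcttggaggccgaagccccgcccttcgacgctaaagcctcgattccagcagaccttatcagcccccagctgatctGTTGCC

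The capitals mark the MYB match, which begins 159 bases before the start, and the GTTGCC match, which begins 6 bases before it. Windows were available for 24 members. TAACNG was found in those of 7 members (22.3% of all genes have a window with it), GTTGCC in 3 members (11.8%) and TGACGT, part of the site in cyclic AMP response elements, in 4 members (7.29%). The full element TGACGTCA was in none of the 24 (1.77% of all genes). Both strands were searched, and TGACGT lies within TGACGTCA. These are matches of letters and say nothing of binding.

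Spata16, a Golgi protein of the forming acrosome that is mutated in globozoospermia, was at 589 (WT) and 586 CPM (knockout) in late spermatocytes. In round spermatids it was at 312 and 290 CPM, and in elongating spermatids at 61.5 and 42.4 CPM. Spata1 (chr3:146457196-146499753) hardly differed between late spermatocytes (779 and 781 CPM) and round spermatids (760 and 730 CPM), and then stood at 111 and 82.1 CPM in elongating spermatids. Its late spermatocyte level was 1.02-fold its round spermatid level in WT (interval 1.01 to 1.04) and 1.07-fold in the knockout library (1.04 to 1.10). Spata1 overlaps Ctbs on the other strand, and whether counting used strand is not stated in those sources that were read.

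Spata45, Spata46, Spata31 and Spata9 were each high in round spermatids and low in the stages on both sides. Spata45 (chr1:191036639-191042942) went from 67.0 CPM in WT late spermatocytes to 692 CPM in round and 22.8 CPM in elongating spermatids. The knockout values were 73.8, 688 and 15.9 CPM. The round spermatid level was 10.3-fold that of late spermatocytes in WT (interval 10.02 to 10.7) and 9.32-fold in the knockout library (8.68 to 10.01). Spata46, an inner nuclear membrane protein needed for the shape of the sperm head, showed the same rise and fall, from 35.7 to 541 to 41.4 CPM in WT and from 45.3 to 522 to 32.0 CPM in the knockout library. Spata31 went from 21.3 to 376 to 14.95 CPM in WT and from 32.6 to 377 to 10.6 CPM in the knockout library. Spata9 had the largest ratio between its highest and its next stage of the members measured in both libraries, from 11.04 to 219 CPM in WT (19.8-fold, interval 18.4 to 21.3) and from 11.9 to 200.1 CPM in the knockout library (16.8-fold, interval 14.1 to 20.1). In WT, round spermatids held 82.0% to 84.9% of the CPM that each of these 4 genes had over the 5 stages.

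In thinned cells, a Spata45 count was present in 49.0% of WT round spermatids (46.4 to 51.7%) and 47.9% of knockout ones (43.7 to 52.1%). In Leydig-like cells the shares were 0.870% and 0.278%. Before thinning, 97.6% and 94.2% of round spermatids held one, as did 14.5% and 7.78% of Leydig-like cells.

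Spata17 and Spata48 were less confined. Spata17, an IQ motif protein, stood at 287 CPM in WT round spermatids against 229 CPM in late spermatocytes and 145 CPM in elongating spermatids, and at 276, 229 and 147 CPM in the knockout library. Spata48 is a microtubule inner protein of the sperm axoneme. It stood at 177 and 174 CPM in round spermatids, and at 74.8 and 71.9 CPM in elongating spermatids. It overlaps the acrosomal gene Zpbp on the other strand.

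Within round spermatids, the Spata31 genes separated by cluster. Cells of cluster 10 (1142 WT and 494 knockout cells) had 0.428% and 0.797% of their counts from the protamine genes Prm1 and Prm2. In cluster 22 (255 and 72 cells) that share was 2.38% and 3.45%, and in cluster 12, an elongating spermatid-like cluster (558 and 865 cells), 7.09% and 7.995%. The order of the clusters follows their protamine share in WT, and no other measure of developmental time was computed. In WT clusters 9 and 10 hardly differed (0.426% and 0.428%). The knockout library departs from this order in places. Its share was 0.757% in cluster 16, 0.668% in cluster 8 and 0.666% in cluster 9. It was 14.27% in cluster 11 and 13.7% in cluster 6. Clusters 16, 8 and 9 are late spermatocyte-like.

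Spata31d1b was at 3.99 CPM in WT cluster 10 (interval 3.24 to 4.85) and 4.53 CPM in knockout cluster 10 (3.33 to 6.03). It stood at 291 CPM (278 to 305) and 327 CPM (300.2 to 355) in cluster 22, at 332 and 321 CPM in cluster 12, and at 87.8 and 95.9 CPM in cluster 0. The intervals of cluster 10 overlapped those of Spata31d1b in clusters 16, 8 and 9, where it stood between 3.30 and 3.91 CPM. The gene was thus low through meiosis and in the first round spermatid cluster, and high in the next pair of clusters of each library.

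Spata31d1c and Spata31d1a followed the same step. Spata31d1c was at 1.67 and 1.25 CPM in cluster 10, 102 and 129 CPM in cluster 22, 84.3 and 85.1 CPM in cluster 12 and 12.02 and 13.4 CPM in cluster 0. Spata31d1a was at 6.82 and 12.4 CPM in cluster 10, 111 and 136 CPM in cluster 22 and 151 and 153 CPM in cluster 12, and it was still at 130 and 144 CPM in cluster 0. The transcript of Spata31d1b shares 29.1% of its runs of 31 bases with Spata31d1a, and 46.0% in its last 500 bases. In the other direction, Spata31d1a shares 23.4% of its runs with Spata31d1b, and 0.0% in its last 500 bases. The split of counts between these 2 genes is therefore uncertain. Spata31d1c shares nearly no such run with either.

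Spata31d1d and Spata31 began earlier. Spata31d1d was at 48.4 and 44.6 CPM in cluster 10, 236 and 226 CPM in cluster 22, 44.4 and 49.1 CPM in cluster 12 and 11.8 and 14.98 CPM in cluster 0. Spata31 was already at 61.7 and 75.2 CPM in cluster 9, and stood at 350 and 383 CPM in cluster 10, 474 and 337 CPM in cluster 22 and 20.4 and 15.8 CPM in cluster 12. In cluster 12, where Spata31d1b was at 332 and 321 CPM, Spata31 was at a level that differed little from that of the late spermatocyte class in WT (21.3 CPM) and was lower than it in the knockout library (32.6 CPM). The step in the Spata31d1 genes and the fall of Spata31 were seen in both libraries.

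Other members divided in the same way. Spata25 (chr2:164826389-164828537), which overlaps Zswim1 on the other strand, stood at 38.2 and 40.9 CPM in cluster 10, 204 CPM in cluster 22 of both libraries, and 124 and 131 CPM in cluster 12. Spata45 was at 200.2 and 175 CPM in cluster 9, 689 and 702 CPM in cluster 10, 705 and 602 CPM in cluster 22, and 46.4 and 46.2 CPM in cluster 12. Spata9 was at 204 and 195 CPM in cluster 10, 276 and 232 CPM in cluster 22, and 31.3 and 32.5 CPM in cluster 12. Spata46 stood at 508 and 506 CPM in cluster 10, 671 and 619 CPM in cluster 22, and 142 and 143 CPM in cluster 12. Spata45, Spata9 and Spata46 were thus already high in cluster 10, as Spata31 was, and all 3 were lower in cluster 12 than in cluster 10. Spata25 was instead higher in cluster 12 than in cluster 10 in both libraries. Cells in clusters were grouped by other genes, so these steps describe where the members lie along that grouping.

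**Figure D2:**
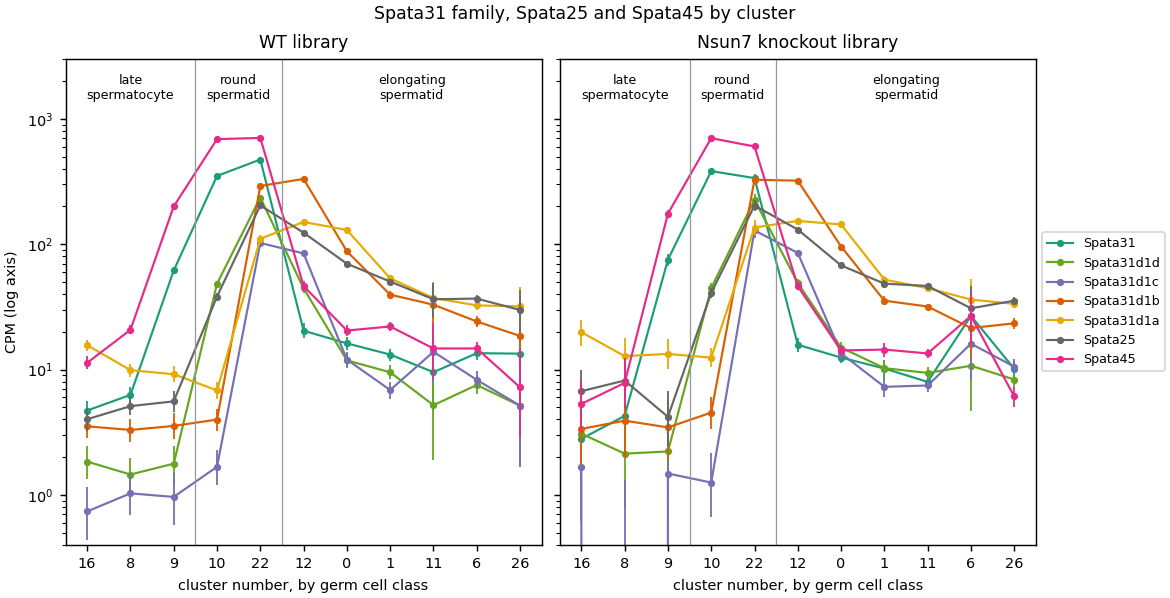
Level (CPM, log axis) of the 5 Spata31 genes, Spata25 and Spata45 in 11 germ cell clusters of the WT and the knockout library, from late spermatocyte-like clusters on the left to elongating spermatid-like clusters with low Tnp1 on the right, with 95% counting intervals as bars. Spata45 and Spata31 are high from cluster 10 and low by cluster 12, while Spata31d1a, Spata31d1b and Spata31d1c step up only at cluster 22. Clusters 2, 4 and 17 of these classes and the unnamed cluster 3, closest to round spermatids by markers, are not shown.

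The 9 members of elongating spermatids differed in how early they appeared. Spata3 (chr1:86016816-86029958) went from 294 CPM in WT round spermatids to 2298 CPM in elongating spermatids, and from 392 to 2376 CPM in the knockout library. In thinned cells it was present in 85.0% of WT and 85.8% of knockout elongating spermatids, and in 13.0% and 23.3% of Leydig-like cells. Without thinning these shares were 98.5% in both libraries and 59.7% and 82.8%. The elongating spermatid share lay far above the Leydig-like share, which serves as the background.

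Spata20, a thioredoxin-like protein, stood at 493 and 542 CPM in round and 1299 and 1317 CPM in elongating spermatids. Spata21, an EF-hand protein, was at 797 and 852 CPM in round and 1605 and 1818 CPM in elongating spermatids. Spata7, a ciliary protein that binds RPGRIP1 in photoreceptors, was at 451 and 425 CPM and then at 849 and 803 CPM. All 3 were higher in elongating than in round spermatids. The ratio was 2.63 for Spata20, 2.01 for Spata21 and 1.88 for Spata7 in WT, and 2.43, 2.13 and 1.89 in the knockout library.

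Spata33 and Spata24 were broad. Spata33, which takes part in mitophagy and places calcineurin in the sperm tail, stood at 1270 and 1220 CPM in late spermatocytes, 1435 and 1397 CPM in round spermatids and 1578 and 1742 CPM in elongating spermatids. It overlaps Gm20388 on the same strand. Spata24 stood at 699 and 736 CPM in late spermatocytes, 1077 and 1137 CPM in round spermatids and 1604 and 1938 CPM in elongating spermatids. Spata32 (chr11:103208127-103218432) was instead low until late, at 22.5 and 40.4 CPM in late spermatocytes, 39.99 and 68.7 CPM in round spermatids and 367 and 460 CPM in elongating spermatids. It overlaps 1700023F06Rik on the same strand.

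Elongating spermatid-like cells were next divided by their share of Tnp1 counts, since transition protein transcripts are lost as spermatids mature. Cells with 1% Tnp1 or more and 10% protamine or more (1332 WT and 4278 knockout cells) were compared with cells under 1% Tnp1 (2448 and 2584 cells). This division was chosen after the data had been seen, and the one planned is given below. Spata3 was at 1879 (WT) and 2169 CPM (knockout) in cells with high Tnp1, and at 3963 and 4253 CPM in cells with low Tnp1. That is a 2.11-fold and a 1.96-fold higher share of counts. Spata24 went the other way, from 2214 and 2290 CPM to 314 and 402 CPM, a 7.06-fold and a 5.70-fold difference. Spata33 was 2.89-fold and 2.35-fold lower, and Spata32 2.301-fold and 1.78-fold lower, in cells with low Tnp1. Spata7 differed by 1.02-fold and 1.03-fold. As shares of counts, Spata3 and Spata24 thus changed in opposite directions within the class, in both libraries. Cells with low Tnp1 held fewer counts, a median of 7409.5 (WT) and 8922.5 (knockout) against 16153.5 and 17851 in cells with high Tnp1. A higher share in them therefore need not mean more Spata3 counts per cell.

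By 1.5-fold, 1 of 18 measured members was higher and 6 were lower in WT cells with low Tnp1, against 13.2% and 25.6% of all genes. In the knockout library 1 of 17 was higher and 7 were lower, against 14% and 29.2%. Mostly different clusters supplied these cells in the 2 libraries. Cells with low Tnp1 came from cluster 6 in WT (72.9%) and cluster 26 in the knockout library (61.8%), and cells with high Tnp1 from cluster 1 in WT (76.0%) and clusters 11 and 2 in the knockout library (46.8% and 27.2%). The planned ranges took mid and late cells from those with 15% protamine or more, a limit near which 24.1% of WT and 26.5% of knockout cells lay. They left 1605 cells of low Tnp1 in the least protamine-rich range of each library. With them Spata21, Spata24, Spata32 and Spata33 were lower in late than in mid cells in WT (4 of 18 members, background 19.7%) and Spata24, Spata32 and Spata33 in the knockout library (3 of 17, background 10.4%). No member was higher, against 8.69% and 1.46% of all genes, and Spata3 was 1.40-fold and 1.36-fold higher.

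**Figure D3:**
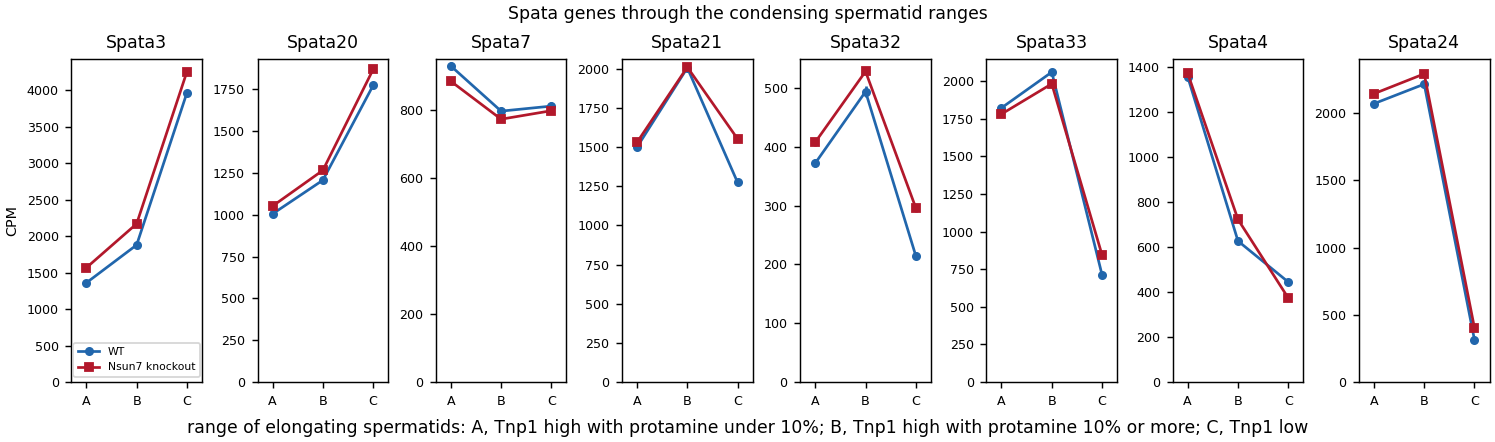
Level (CPM) of 8 Spata genes in 3 groups of elongating spermatid-like cells of the WT and the knockout library: A, Tnp1 at 1% or more and protamine under 10% of counts; B, Tnp1 at 1% or more and protamine at 10% or more; C, Tnp1 under 1%. As a share of counts, Spata3 rises to group C in both libraries (3963 CPM in WT, 4253 CPM in knockout cells), and Spata24 falls to 314 and 402 CPM. Group C cells hold fewer counts (median 7409.5 in WT and 8922.5 in the knockout library) than group B cells (16153.5 and 17851).

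In elongating spermatids 0 of 20 measured members were 1.5-fold apart, where 0.0209% of all genes were higher and 7.31% lower in the knockout library. Their median log2 ratio of knockout to WT was -0.03, beside -0.07 over all genes, and single members ran from 1.25-fold higher (Spata32) to 1.45-fold lower (Spata16). The class draws on different clusters in each library: cluster 6 held 1849 WT and 79 knockout cells, and cluster 11 held 96 and 2115. Within ranges of the class some members did pass 1.5-fold. The share of all genes that did so is not given for these ranges, so the members named cannot be set against a background. In cells with low Tnp1, Spata16 (46.3 and 27.9 CPM) and Spata45 (15.04 and 7.88 CPM) were lower in the knockout library. In the planned mid range Spata16 was lower (45.6 and 24.5 CPM), and in the late range Spata32 was higher (269 and 409 CPM). Late spermatocyte markers were lower in the class as well, 5 of 7 measured with 0 higher (summed level 329.5 and 157 CPM), and their part in these differences was not tested. The scaling bears on this stage. A trimmed mean of M values gave a log2 factor of -0.33, relative to which the members' median was 0.30 and Spata24 (0.60) and Spata32 (0.65) passed 1.5-fold. Ratios and counts of members here add 5 CPM to both values, and folds of named genes do not.

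In round spermatids 1 of 23 measured members, Spata32, was 1.5-fold apart, where 0.0603% of all genes were higher and 0.133% lower. Spata32 was at 39.99 (WT) and 68.7 CPM (knockout), a ratio of 1.72 (1.57 to 1.88). In Leydig-like cells, the background, Spata32 was at 35.0 (WT) and 52.1 CPM (knockout), not far below these levels. The other somatic classes stood above the round spermatid levels. Spata32 was at 99.3 and 255 CPM in Sertoli-like, 86.5 and 229 CPM in macrophage-like and 91.0 and 191 CPM in stroma-like cells. The part of such background in the Spata32 difference was not tested. Spata3 followed with 294 and 392 CPM, a ratio of 1.33 (1.28 to 1.38). On the lower side, Spata31d1b was at 62.7 and 49.6 CPM (1.26-fold lower, interval 1.15 to 1.39) and Spata31d1d at 86.6 and 70.0 CPM (1.24-fold lower, 1.14 to 1.34). Cluster 22, where both genes are high, made up 255 of 1397 WT and 72 of 566 knockout round spermatids, and the part of this mix in their differences was not tested. Within cluster 22 Spata31d1b was at 291 and 327 CPM and Spata31d1d at 236 and 226 CPM. Within cluster 10 they were at 3.99 and 4.53 CPM and at 48.4 and 44.6 CPM. Spata32 was also higher in the knockout library within cluster 10 (23.4 and 49.8 CPM) and within cluster 22 (104 and 185 CPM). The summed share of the 11 elongating spermatid marker genes was 2.25% of counts in WT and 2.86% in knockout round spermatids, with 0 of 11 past 1.5-fold, and its part in the Spata32 difference was not tested.

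**Figure D4:**
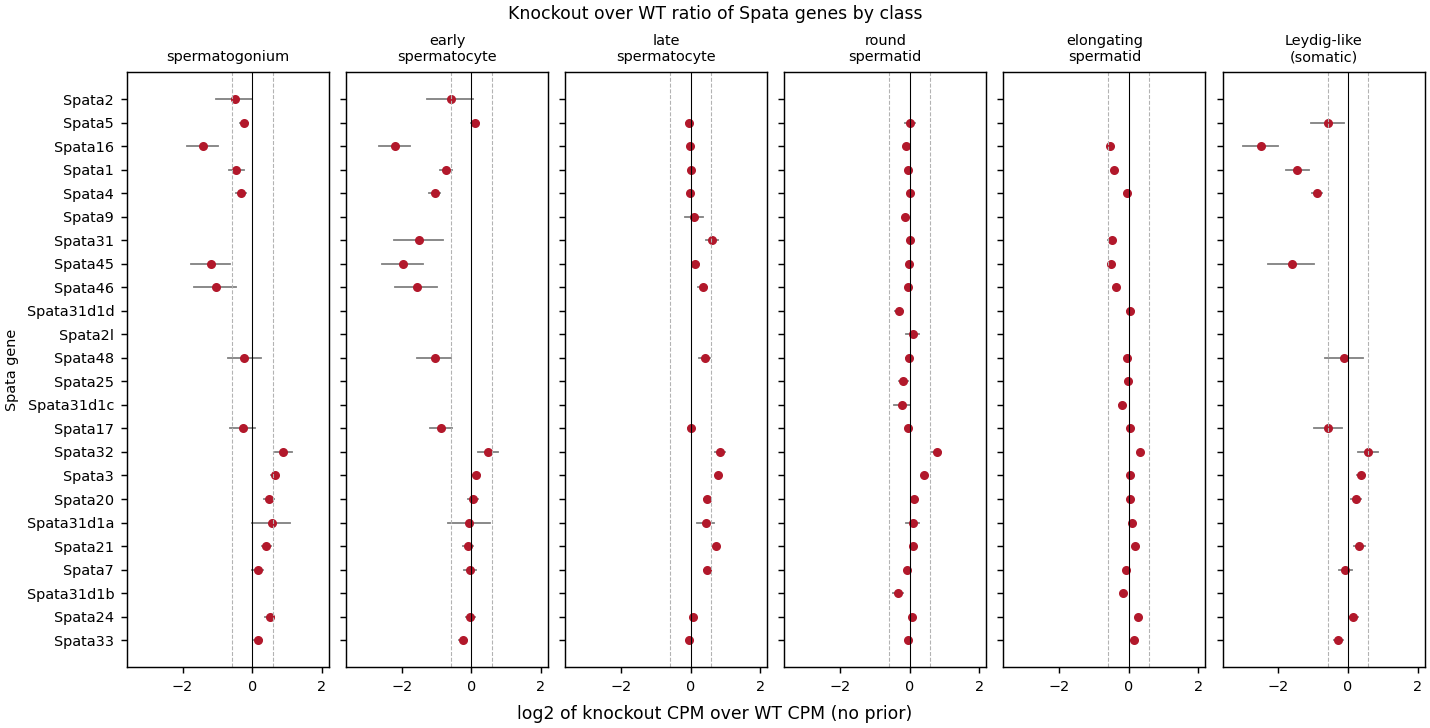
Log2 ratio of knockout to WT level for each measured Spata gene (points) in the 5 germ cell stages and in Leydig-like cells, with nothing added to the values, 95% counting intervals as bars and dashed lines at 1.5-fold. Points lie between the lines in elongating spermatids, mostly below 0 for the upper genes in early spermatocytes, and near or above 0 in late spermatocytes.

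In late spermatocytes 3 of 18 measured members were 1.5-fold higher in the knockout library and 0 lower, where 2.55% of all genes were higher and 0.351% lower. Spata21 was at 127 and 211 CPM (1.66-fold, interval 1.58 to 1.73), Spata3 at 115 and 199 CPM (1.74-fold, 1.66 to 1.82) and Spata32 at 22.5 and 40.4 CPM (1.80-fold, 1.62 to 1.99). In Leydig-like cells, the background, Spata21 was at 132 and 166 CPM, Spata3 at 215 and 277 CPM and Spata32 at 35.0 and 52.1 CPM. These background levels lay above those of late spermatocytes, except for Spata21 in the knockout library. The part of this background in the 3 differences was not tested. All 3 members are highest in elongating spermatids. The elongating spermatid markers moved with them: 7 of 11 were 1.5-fold higher in knockout late spermatocytes and 0 lower, their summed share was 0.811% and 1.49% of counts, and none was at 0. After subtraction of free RNA the log2 ratios were 0.60 for Spata21, 0.59 for Spata3 and 0.37 for Spata32, which is then under 1.5-fold. The count stayed at 3 (of 17), since Spata31 passed instead, at 17.3 and 31.9 CPM (log2 ratio 0.72). For that setting the share of all genes is not given. Members at home in this stage were level: Spata4 at 1773 and 1741 CPM, Spata16 at 589 and 586 CPM, and Spata1 at 779 and 781 CPM.

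In early spermatocytes 8 of 18 measured members were 1.5-fold lower in the knockout library and 0 higher, where 7.93% of all genes were lower and 1.08% higher. The 8 were Spata1, Spata4, Spata16, Spata17, Spata31, Spata45, Spata46 and Spata48, none of which is highest in this stage. Spata16 was at 66.2 and 14.5 CPM (4.58-fold lower, interval 3.39 to 6.32), Spata45 at 35.0 and 9.04 CPM (3.87-fold, 2.63 to 5.88) and Spata4 at 270 and 130 CPM (2.07-fold, 1.86 to 2.304). Spata5, the member that is highest here, was at 308 and 331 CPM (1.08-fold higher, 0.997 to 1.16). Late spermatocyte markers moved the same way. Of the 11, 10 were measured, 7 were 1.5-fold lower and 0 higher, and their summed level was 989 (WT) and 489.7 CPM (knockout), with none at 0.

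Leydig-like cells moved the same way. There 4 of 14 measured members were 1.5-fold lower and 0 higher, where 6.2% of all genes were lower and 0.412% higher. Spata16 was at 39.8 and 7.09 CPM, Spata45 at 15.3 and 5.01 CPM, Spata1 at 50.1 and 18.3 CPM and Spata4 at 178 and 96.1 CPM. All 4 are among the 8 of early spermatocytes. Late spermatocyte markers were lower there for 8 of 8 measured, with a summed level of 330 (WT) and 90.1 CPM (knockout). The part of such background in the early spermatocyte differences was not tested. After subtraction of free RNA, 5 of 15 measured members were 1.5-fold lower in early spermatocytes and 0 higher. The direction depended on the clustering: at Leiden resolution 2, 6 of 17 members were higher and 6 lower in that stage. The share of all genes is not given for either setting, so these counts cannot be set against a background.

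In spermatogonia 2 of 17 measured members were 1.5-fold higher (2.05% of all genes) and 3 lower (2.76%). Spata3 was at 209 and 326 CPM and Spata32 at 36.1 and 67.1 CPM. Spata16 was at 34.5 and 13.0 CPM, Spata45 at 19.96 and 8.81 CPM and Spata46 at 16.04 and 7.77 CPM. In Leydig-like cells, the background, Spata3 was at 215 and 277 CPM and Spata32 at 35.0 and 52.1 CPM. There Spata16 was at 39.8 and 7.09 CPM, Spata45 at 15.3 and 5.01 CPM and Spata46 at 9.43 and 5.36 CPM. The higher members are highest in elongating spermatids and the lower ones in late spermatocytes or round spermatids. Of the elongating spermatid markers 8 of 11 were higher and 0 lower in knockout spermatogonia (1.56% and 2.63% of counts), and of 9 measured late spermatocyte markers 0 were higher and 5 lower (578 and 388 CPM). None of either list was at 0, and their part in the Spata differences was not tested. The count depended on the cells kept: with at least 500 genes and at most 10% mitochondrial counts per cell, 9 of 19 members were higher and 3 lower. For that setting the share of all genes is not given, so this count cannot be set against a background.

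Sertoli-like cells also held spermatid members, more so in the knockout library. Spata3 was at 576 (WT) and 1406 CPM (knockout), Spata24 at 537 and 1022 CPM, and Spata21 at 493 and 1042 CPM. Of 22 measured members 7 were 1.5-fold higher and 2 lower, where 9.55% of all genes were higher and 42.2% lower. All 11 elongating spermatid markers were 1.5-fold higher in these cells too, with a summed share of 5.36% of counts in WT and 12.9% in the knockout library. The class joins clusters 5 and 25 in unlike parts. Cluster 25 gave 2092072 of 5124948 WT counts and 422780 of 3911408 knockout counts. Prm1 and Prm2 made up 0.738% (WT) and 2.92% (knockout) of counts in cluster 25, and 4.08% and 7.28% in cluster 5. The part of the markers or of this mix in the Spata differences was not tested.

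In macrophage-like cells 4 of 21 measured members were higher (7.85% of all genes) and 5 lower (27.7%) in the knockout library. The higher ones were Spata3, Spata20, Spata21 and Spata32, and the lower ones Spata1, Spata5, Spata16, Spata25 and Spata31. In interstitial stroma-like cells 6 of 19 were higher (7.03%) and 2, Spata5 and Spata16, were lower (15.2%). The elongating spermatid markers stood at 6.89% and 11.3% of counts in macrophage-like cells and at 6.18% and 9.24% in stroma-like cells, with none at 0. Late spermatocyte markers were lower for 10 of 10 measured in macrophage-like cells (summed level 1081 and 282 CPM) and for 8 of 9 in stroma-like cells (702 and 262 CPM), with 0 higher. The part of either list in these differences was not tested.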

How the data were processed

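The authors deposited raw counts per gene and cell barcode for 2 libraries, made with PISA 0.12 per the file headers, on GRCm38 per the submitters' processing notes. Not given in the sources used here: aligner, annotation, strand setting and barcode filter. Per the labels, testes were digested with enzymes, strained and treated with a lysis buffer, and DNBelab C libraries were made. WT held 16376 barcodes and 220247156 counts, the knockout 16837 and 210531446. Cells were kept from 200 genes up and to 20% mitochondrial counts (15139 and 13869). A total of 2168 barcode names occur in both libraries; they are running numbers and not sequences. Scrublet called 4.36% and 4.72% doublets, which were kept. Scanpy 1.11.5 clustered the cells (3000 variable genes without Spata genes or Nsun7, 40 components, 20 neighbours, Leiden resolution 1) with no batch correction.

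Counts were summed per class. Intervals are exact 95% Poisson, conditional binomial (ratios) or Clopper-Pearson (shares) intervals and cover counting error only. A gene was measured at a mean of 10 CPM and called at 1.5-fold after adding 5 CPM. Named genes are the members at 50 CPM in a stage and those a count singles out. Gene positions are from GENCODE M21, and promoter windows from RefSeq (GRCm38.p6). Members, lists and tests were chosen with earlier results of these data known.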

Additional observations from a re-analysis of the deposited data

How the results depend on the processing

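Of 141 values recomputed under other settings, 120 were counted as unchanged and 21 as moved. The limits set were 1.5 times for a count and the counting interval of the middle member for a median. Some of the 120 changed direction. At Leiden resolution 2, 12 members were apart in early spermatocytes, 6 higher and 6 lower, against 8 lower. The spermatogonium median was 0.249 with free RNA subtracted and 0.273 at a minimum of 50 CPM, against -0.170. Both lie outside the limits set for that median. So does the early spermatocyte median at a minimum of 50 CPM, which was -0.036 against -0.319. These medians were nevertheless counted among the 120. The round spermatid median was 0.027 under trimmed mean scaling, against -0.026. No paired analysis was possible because each genotype has 1 library and no test was made. Without replicates, the settings show how the processing bears on these libraries, and the cause of each shift was not tested. No share of all genes is given here beside the counts of members under other settings. With at least 500 genes and at most 10% mitochondrial counts per cell, 12 members were 1.5-fold apart in spermatogonia and their median log2 ratio was 0.564. Subtracting free RNA left 3 members apart in spermatogonia and 5 in early spermatocytes. A minimum of 50 CPM left 2 and 2, and the medians were 0.039 in late spermatocytes and 0.019 in elongating spermatids. Means of single-cell CPM gave medians of 0.088 in late spermatocytes and 0.015 in elongating spermatids, and Leiden resolution 2 gave 0.007 in the latter. Trimmed mean scaling gave 0.300 there, with 2 members apart. At 2-fold, 1 member was apart in spermatogonia, 5 in early spermatocytes, and 0 in late spermatocytes and in round spermatids. Limits of 10% protamine and 2% Tnp1 put 7 WT and 8 knockout members apart between late and mid elongating spermatids, as did ranges by Tnp1 alone (7 and 8), chosen after seeing the data. Leaving out a low-count cluster of late spermatocytes, also chosen after seeing the data, moved neither value there.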

Other observations

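A separate group of 29 genes was listed as acting with Spata proteins or beside them, all of them in the files. Some were listed for a shared structure, such as genes of the nuclear envelope set beside Spata46. No link between a listed gene and a Spata protein was tested here. In round spermatids 0 of 18 measured were 1.5-fold apart between the libraries (0.0603% of all genes were higher and 0.133% lower in the knockout). Ppp3r2 and Ppp3cc, the calcineurin subunits of the testis, were at 682 and 283 CPM in WT and 669 and 274 CPM in the knockout library. Vdac2, a mitochondrial porin, was at 861 and 851 CPM. Rpgrip1, the ciliary partner of Spata7, was at 612 and 596 CPM. In early spermatocytes 5 of 25 measured genes of the group were lower and 0 higher (7.93% and 1.08% of all genes). In spermatogonia 4 of 25 were lower and 1 higher (2.76% and 2.05%). In late spermatocytes 0 of 21 were lower and 1 higher (0.351% and 2.55%). The part of background in these differences was not tested.

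In elongating spermatids 4 of 16 measured were lower and 0 higher (7.31% and 0.0209% of all genes). Vdac2 was at 66.7 (WT) and 26.1 CPM (knockout) (2.55-fold lower, interval 2.44 to 2.66), and Zpbp, a zona pellucida binding protein of the acrosome, at 23.6 and 8.12 CPM (2.90-fold, 2.70 to 3.12). Cdc42 was at 13.1 and 7.03 CPM and Vcp, an AAA ATPase, at 16.3 and 7.24 CPM. Spem1 was at 1508 and 1542 CPM. Late spermatocyte markers were lower in this class too, 5 of 7 measured with 0 higher (summed level 329.5 and 157 CPM), and their part was not tested. The log2 scaling factor of this stage (-0.33) is not applied to these values. With it all 4 differences are smaller, and those of Cdc42 and Vcp fall under 1.5-fold.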
